A study of Mus musculus with 14 samples.

Results

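BCOR and Otx2 regions in the retina of newborn mice were compared to see which places in the genome carried both proteins and which carried one without the other. The regions were taken from 4 CUT&RUN peak lists of whole retina of wild-type CD1 mice at birth (P0), 2 libraries for BCOR and 2 for Otx2, on chromosomes 1 to 19. A region of a factor was a stretch of overlapping peaks that held a peak of each of its 2 replicates, and it was counted as shared when it overlapped a region of the other factor by at least 1 base. By this rule there were 4634 BCOR regions and 18280 Otx2 regions. They fell into 3106 loci with both factors, 1514 regions of BCOR alone and 15156 regions of Otx2 alone, 19776 in all. The 10 peak lists of the series held 105509 peaks on these chromosomes.

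In CUT&RUN an antibody tethers a nuclease to a chromatin protein, and the fragments cut around it are sequenced. Besides the P0 libraries, the series holds CUT&RUN of CD1 wild-type retina at embryonic day 14 (E14), with 1 library a factor, and in adults, with 2 a factor. The E14 and adult lists served here only to ask what the P0 regions carried at other ages. The labels do not say whether replicates came from separate animals or litters, so the spread between them may be technical. The labels give the antibody target as Otx2 and the series text as Otx2/Crx, so part of what is called Otx2 here could be CRX, which was not tested.

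BCOR is a corepressor. It does not read DNA sequence by itself and is brought to chromatin by partners such as the repressor BCL6 or by the CpG-binding protein KDM2B, within a variant Polycomb complex that places ubiquitin on histone H2A. Otx2 is a homeodomain transcription factor that binds DNA directly. In the retina it is needed for photoreceptor fate, it acts above the related factor Crx, and it is also present in bipolar cells. At birth the mouse retina holds dividing progenitors together with young cones, horizontal, amacrine and ganglion cells, while most rods are still being made and bipolar cells and Müller glia mostly arise after birth. A peak list of whole retina mixes these cells, so a region with both factors may carry them in the same cells or in different cells, which these data cannot tell apart.

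The 4 P0 lists differed mainly in length. The BCOR lists held 5292 and 8784 peaks on chromosomes 1 to 19 and the Otx2 lists 21759 and 24884. The largest q-value was 0.0496 and 0.0481 in the BCOR lists and 0.0480 and 0.0473 in the Otx2 lists, so all 4 had been drawn at a like threshold. Of the BCOR peaks in replicate 1, 89.2% were met by a peak of BCOR replicate 2, and of those in replicate 2, 52.9% by one of replicate 1. The same shares for Otx2 were 84.7% and 73.8%. Read depth was not given in the peak lists, so the lengths of the lists are not measurements of how much of either protein was bound. At E14 the largest q-value was 0.0999 for BCOR and 0.0996 for Otx2, and in the adult 0.248 in both BCOR lists and 0.0466 and 0.0489 in the Otx2 lists, so levels are not compared between ages. All intervals given are 95% Wilson intervals unless named otherwise, and they cover counting error over regions and not the spread between libraries.

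Most BCOR regions at birth lay on an Otx2 region, while most Otx2 regions lacked a BCOR region. Of the 4634 BCOR regions, 3120 overlapped an Otx2 region, 67.3% (66.0 to 68.7%). Of the 18280 Otx2 regions, 3124 overlapped a BCOR region, 17.1% (16.5 to 17.6%). The contact was nearly always one to one: the regions formed 3138 overlapping pairs, and only 17 BCOR regions touched more than 1 Otx2 region and 14 Otx2 regions more than 1 BCOR region. In 3105 of the pairs the overlap took up at least 50% of the shorter region, and its median was 100%, so that the shorter region usually lay wholly inside the longer one. In bases, the overlap was 1503 kb, which was 53.2% of the 2827 kb covered by BCOR regions and 13.7% of the 11005 kb covered by Otx2 regions.

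Pairs of single lists gave a like share on the BCOR side and a wider one on the Otx2 side. An Otx2 peak was found at 65.8% and 69.3% of the peaks of BCOR replicate 1, for Otx2 replicates 1 and 2, and at 63.9% and 67.2% of the peaks of BCOR replicate 2. A BCOR peak was found at 15.9% and 25.7% of the peaks of Otx2 replicate 1, for BCOR replicates 1 and 2, and at 14.7% and 23.7% of the peaks of Otx2 replicate 2. The share of Otx2 regions with BCOR therefore followed which BCOR list was used: without BCOR replicate 1, the shorter list, 5278 Otx2 regions overlapped a BCOR peak, 28.9%. With each list limited to its 5000 peaks of highest significance, the shares were 33.8% of 3653 BCOR regions and 28.9% of 4251 Otx2 regions. As the overlap is nearly one to one, both shares count about as many regions, here 1236 and 1230. Lists of equal length therefore give close shares by construction. The contrast between 67.3% and 17.1% likewise follows the numbers of regions and cannot be told apart from the lengths of the lists. The cut kept 5000 of the 5292 peaks of BCOR replicate 1 and of the 24884 of Otx2 replicate 2. Over single chromosomes the share of BCOR regions with Otx2 ran from 61.6% on chromosome 16 (52.8 to 69.7%) to 74.3% on chromosome 7 (69.4 to 78.6%), with a median of 66.3%.

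Not every region called alone was free of the other factor. Among the 1514 regions of BCOR alone, 1059 had no Otx2 peak in either P0 list, 70.0% (67.6 to 72.2%), and 446, or 29.5% (27.2 to 31.8%), had one in a single Otx2 list. The remaining 9 had peaks of both Otx2 lists that did not overlap each other. The median Otx2 fold of those peaks was 4.32 and 4.53 at BCOR regions called alone, for 149 and 315 peaks of replicates 1 and 2. This was close to the 4.32 and 4.51 of all Otx2 regions found in a single list, and the 9.26 and 9.75 in regions with both are of replicated peaks, so the gap follows from the rule. MACS2, the peak caller, gives this fold as signal over background at the summit, and it is used here only within a list. A low fold in whole retina can stand for fewer cells with the protein at that place or for less of it in each cell, which cannot be told apart. With 5000 peaks a list the share of BCOR alone regions with a single-list Otx2 peak was 10.4%. Of the 15156 regions of Otx2 alone, 12810 had no BCOR peak at P0, 84.5% (83.9 to 85.1%), and 2335 had one in a single list, 15.4% (14.8 to 16.0%). Most BCOR peaks at Otx2 alone regions came from replicate 2, the longer list. It had a peak at 2154 of them and replicate 1 at 203, each count with the 11 regions that had peaks of both lists. Counted over all regions of a factor, 22.9% of BCOR regions (21.7 to 24.1%) and 70.1% of Otx2 regions (69.4 to 70.7%) had no peak of the other factor in either P0 list.

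**Figure D1:**
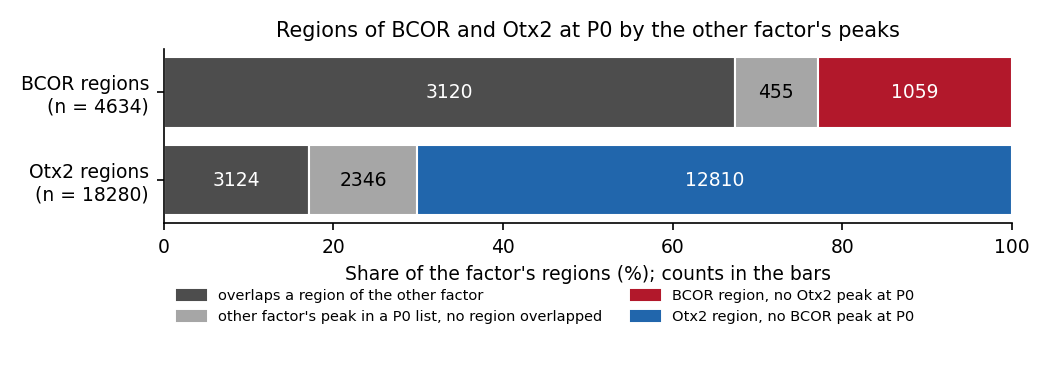
Share of the 4634 BCOR regions (top) and the 18280 Otx2 regions (bottom) at P0 in 3 states, in percent on the horizontal axis, with the number of regions in each part of a bar. Dark grey marks the 3120 and 3124 regions that overlap a region of the other factor, light grey the 455 and 2346 that meet a peak of it in a P0 list without overlapping a region, and colour the 1059 and 12810 with no such peak.

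Regions found in a single list of a factor had lower shares with the other factor than replicated regions. They were also weak, with median folds of 4.55 and 5.10 for BCOR and 4.32 and 4.51 for Otx2 in replicates 1 and 2. Over all peaks of these lists the medians were 5.40 and 6.06 for BCOR and 6.36 and 6.49 for Otx2. Whether the lower shares follow fold was not tested. Of the 4140 BCOR regions seen in replicate 2 without replicate 1, 53.4% overlapped an Otx2 region (51.9 to 54.9%), and of the 573 seen in replicate 1 alone 36.3% did (32.5 to 40.3%), both under the 67.3% of replicated regions. For Otx2 the shares with a BCOR region were 4.65% of the 3333 regions of replicate 1 alone (3.99 to 5.42%) and 5.14% of the 6512 of replicate 2 alone (4.63 to 5.71%), against 17.1% of replicated regions.

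Otx2 peaks had higher folds in regions with both than in regions of Otx2 alone, while for BCOR the folds of the classes lay closer together. In Otx2 replicate 1 the median Otx2 fold was 9.22 in regions with both and 6.87 in regions of Otx2 alone, a ratio of 1.34, and in replicate 2 it was 9.66 and 7.76, a ratio of 1.25. Ranked by fold, 30.3% of the highest decile of Otx2 regions in replicate 1 overlapped a BCOR region (28.2 to 32.5%), against 14.3% of the lowest decile (12.8 to 16.0%). In replicate 2 these shares were 26.3% (24.3 to 28.4%) and 14.5% (13.0 to 16.2%). The rise lay in the upper part of the ranking, as decile 4 held 9.79% and 14.7%.

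For BCOR the median fold in replicate 1 was 5.60 in regions with both and 5.46 in regions of BCOR alone, a ratio of 1.03, and in replicate 2 it was 7.83 and 7.04, a ratio of 1.11. The quartiles of the classes overlapped widely, at 4.39 to 7.31 with both and 4.48 to 7.14 alone in replicate 1. The highest decile of BCOR regions had an Otx2 region in 67.9% (63.5 to 72.0%) by replicate 1 and 70.5% (66.2 to 74.4%) by replicate 2, close to the share over all. The lowest decile had one in 71.8% by replicate 1 (67.5 to 75.7%) but 55.6% by replicate 2 (51.1 to 60.1%), so the replicates differed at the weak end. In replicate 2 the share was 70.5% to 75.9% in deciles 7 to 10, above the lowest decile. By significance the classes of BCOR lay farther apart than by fold, with a median −log10 q of 8.15 with both and 6.18 alone in replicate 1 and of 16.5 and 10.4 in replicate 2. For Otx2 these medians were 21.5 and 9.34 in replicate 1 and 28.8 and 13.4 in replicate 2. With 2 libraries a factor, an exact test over libraries cannot reach a p under 0.333 between factors or 0.5 between classes within libraries, and no call was made. The direction for Otx2 turned when each list was limited to its 5000 most significant peaks, where the mean ratio of the 2 libraries was 0.853 against 1.29 with all peaks, and the ratio for BCOR was 0.968 against 1.07.

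**Figure D2:**
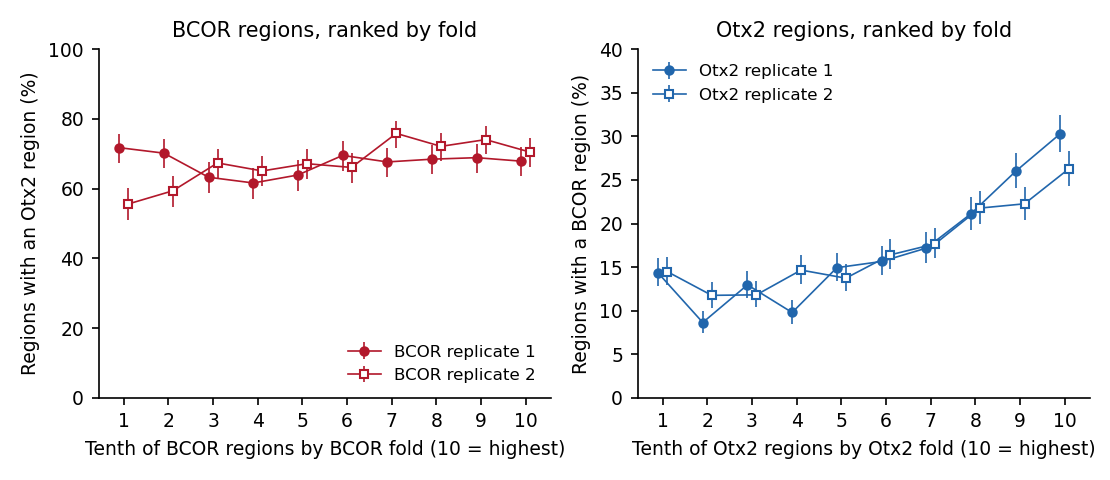
Share of BCOR regions with an Otx2 region (left) and of Otx2 regions with a BCOR region (right), in percent, by deciles of the factor's own fold from lowest (1) to highest (10); bars are 95% Wilson intervals, filled circles replicate 1 and open squares replicate 2, and the vertical axes differ. The Otx2 panel climbs to 30.3% and 26.3% in the highest decile, and the BCOR panel stays between 55.6% and 75.9%.

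Within regions with both, the folds of the factors were close to unrelated. Over these regions the Pearson correlation of log2 fold was 0.80 between the BCOR replicates (n = 3120) and 0.93 between the Otx2 replicates (n = 3115), but 0.07 to 0.10 between a BCOR and an Otx2 library (Spearman 0.06 to 0.10, n = 3116 to 3119). These are correlations across regions, which share their libraries and are not independent replicates, and they are given as a description. The value between factors was smaller without a few peaks of very low fold and very high significance, of which the BCOR lists held 24 and 22 and the Otx2 lists 7 and 15. Without peaks of fold under 5 and −log10 q of at least 100, a setting chosen after seeing the data, it was 0.03 to 0.06, while the replicates kept 0.79 and 0.92.

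**Figure D3:**
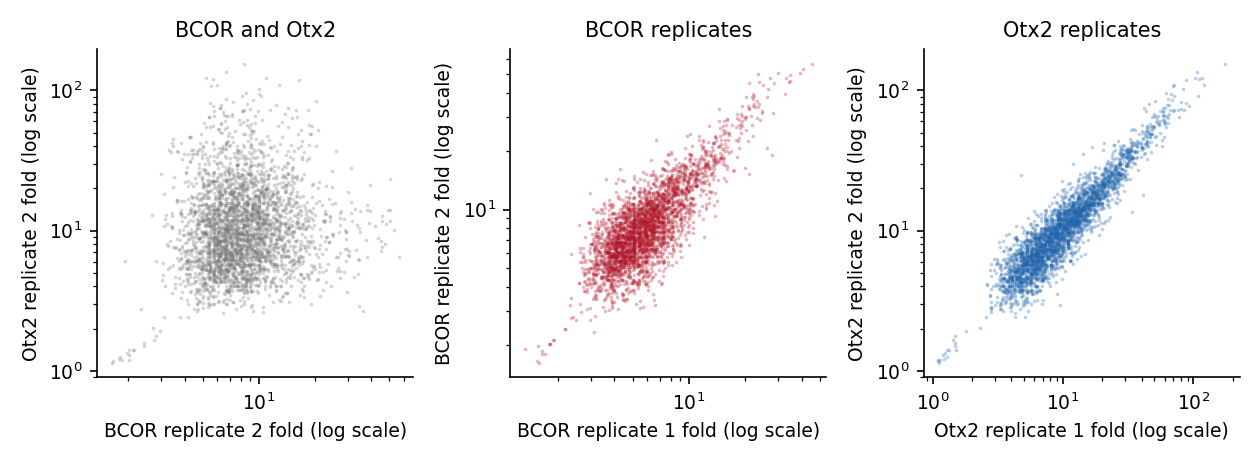
Fold of the highest peak in each BCOR region with both factors, on log axes, 1 point a region: BCOR replicate 2 against Otx2 replicate 2 (left), BCOR replicate 1 against replicate 2 (middle) and Otx2 replicate 1 against replicate 2 (right). The replicates follow a line (Pearson 0.80 and 0.93 on the log2 scale), the factors form a round cloud (0.10), and the small tail at the lower left holds the loci of very low fold.

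The summits of the factors lay almost as close together as the summits of BCOR replicates. In regions with both, the median distance between a BCOR and an Otx2 summit was 57, 52, 49 and 46 bases over the 4 pairs of libraries. Between the replicates of BCOR it was 41 bases and between those of Otx2 29 bases, which is the error of the measure. Summits of BCOR and Otx2 were within 50 bases of each other in 46.3% to 53.2% of regions, against 56.5% for the BCOR replicates and 67.6% for the Otx2 replicates. Within 100 bases these shares were 68.6% to 73.5%, 78.9% and 84.6%. The 4 pairs of a BCOR and an Otx2 library thus all lay farther apart than either pair of replicates, and the nearest of them, at 46 bases, was close to the 41 of BCOR. Distances were longest at the weakest Otx2 peaks but did not fall steadily with Otx2 fold. From the lowest to the highest quintile the medians were 54, 47, 42, 39 and 45 bases in replicate 2. In replicate 1 they were 68.5, 62.5, 52, 51.5 and 54.5. By BCOR fold the lowest and highest quintiles had 50 and 44 bases in replicate 2 and 55 and 51 in replicate 1. The gaps between the end quintiles of Otx2 fold are about as large as those between the pairs of factors and the BCOR replicates.

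**Figure D4:**
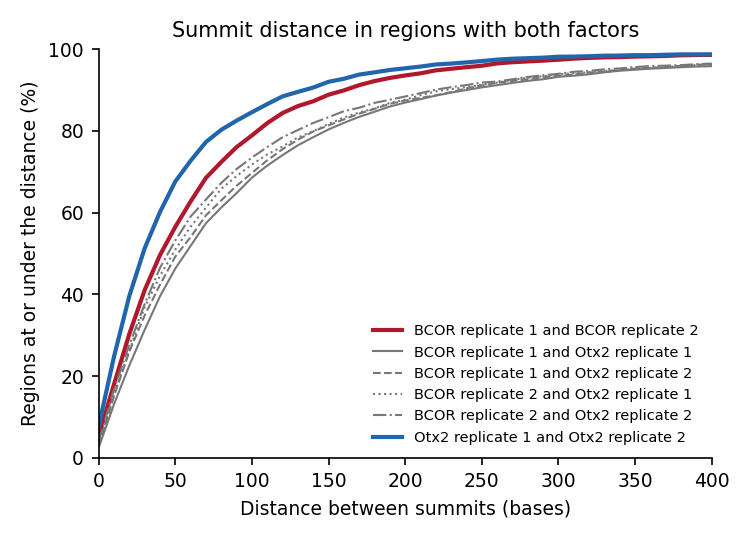
Cumulative share of regions with both factors, in percent, whose summits lie at or under a distance in bases, for the 6 pairs of P0 libraries; red is the pair of BCOR replicates, blue the pair of Otx2 replicates and grey the 4 pairs of a BCOR and an Otx2 library. The grey curves run close together below the red and blue curves, with medians of 46 to 57 bases against 41 and 29.

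Regions with both were wider for Otx2 and about as wide for BCOR. The median Otx2 peak in replicate 1 was 543 bases with both and 429 alone, and in replicate 2 it was 562 and 480. For BCOR these medians were 362 and 352 bases in replicate 1 and 517 and 487 in replicate 2. With 5000 peaks a list both directions turned, to mean ratios of both over alone of 0.951 for BCOR and 0.988 for Otx2. Over all peaks of a list, the median width was 338 and 388.5 bases for BCOR and 399 and 412 for Otx2. Both BCOR values lay below both Otx2 values, a difference of −42.25 bases (BCOR minus Otx2, means 363 ± 35.7 and 406 ± 9.19, SD, n = 2 each), with an exact two-sided permutation p of 0.333, the smallest that 2 against 2 allows. With 5000 peaks a list the difference was −279.25 bases and with peaks of −log10 q of at least 5 it was −64.75. The cut to 5000 was taken from 5292 and 8784 BCOR peaks and from 21759 and 24884 Otx2 peaks. It thus set the most significant Otx2 peaks against a larger part of the BCOR lists.

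Most BCOR regions of either class had no other BCOR region close by, and regions of BCOR alone had one more often than regions with both. Another BCOR region lay within 10 kb of 12.6% of BCOR regions with both (11.5 to 13.8%) and of 22.3% of those alone (20.2 to 24.4%), although the median distance to the nearest one was 75.5 kb and 73.0 kb. An Otx2 region lay within 10 kb of 22.3% of the BCOR alone regions (20.3 to 24.5%), at a median of 36.1 kb. For Otx2, another Otx2 region lay within 10 kb of 29.9% of regions with both (28.3 to 31.6%) and of 34.3% of those alone (33.5 to 35.0%). A BCOR region lay within 10 kb of 6.94% of the Otx2 alone regions (6.55 to 7.36%), at a median of 154 kb. That share was 12.7% without BCOR replicate 1, which leaves the longer list.

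The E14 and adult libraries were not used to define the P0 classes, and the classes differed in them. Where a class lacks a factor at P0 by definition, any binding kept between ages makes its share of that factor lower. Regions with both also had P0 peaks of higher significance, and the weight of each point in the differences was not tested. At E14, where each factor had 1 library, 91.3% of the BCOR regions with both carried a BCOR peak (90.2 to 92.2%), against 78.9% of the BCOR alone regions (76.7 to 80.8%), a difference of 12.4 percentage points (Newcombe interval 10.1 to 14.7), which was 19.1 points without BCOR replicate 2 of P0. An Otx2 peak at E14 was present in 83.2% of the BCOR regions with both (81.9 to 84.5%) and in 28.5% of those alone (26.3 to 30.9%), a difference of 54.7 points (52.0 to 57.3). Seen from Otx2, 83.4% of regions with both had an Otx2 peak at E14 (82.0 to 84.6%), against 25.6% of regions of Otx2 alone (24.9 to 26.3%), a difference of 57.8 points (56.2 to 59.2). A BCOR peak at E14 was found in 91.3% of Otx2 regions with both (90.3 to 92.3%) and in 18.4% of those alone (17.8 to 19.01%). Both factors together were present at E14 in 2489 of the 3120 BCOR regions with both, 79.8% (78.3 to 81.1%), and neither in 165, 5.29% (4.56 to 6.13%).

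The same order held within quintiles of P0 fold. Significance, in which the classes differed more than in fold, was not held level by these quintiles. In the highest quintile of Otx2 fold in replicate 1, 89.3% of regions with both had an E14 Otx2 peak, against 56.5% of those alone, and in the lowest quintile 77.6% against 13.5%. In replicate 2 the highest quintile gave 87.5% against 51.9% and the lowest 74.2% against 15.8%. Regions with both lay above Otx2 alone in all 5 quintiles of both libraries, and the share among Otx2 alone regions was highest in the strongest quintile. For BCOR the gap closed at the strong end: in the highest quintile of BCOR fold an E14 BCOR peak was present in 96.5% of regions with both and 92.5% of those alone by replicate 1, and in 97.3% and 96.5% by replicate 2. In the lowest quintile the E14 shares were 92.1% and 74.0% by replicate 1 and 88.9% and 69.0% by replicate 2.

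A part of the Otx2 alone regions, 2787 in number, had a peak in the E14 BCOR list. That is 1 list with q-values up to 0.0999, while a BCOR region at P0 needed a peak in each of 2 lists. At P0 2346 of the Otx2 alone regions had a BCOR peak in a list, and how many are among the 2787 was not counted. Loss of BCOR by birth therefore cannot be told apart from the looser rule at E14, and it was not tested. Of them, 1846 had an Otx2 peak at E14 as well, 66.2% (64.5 to 68.0%). Among the 12369 Otx2 alone regions without a BCOR peak at E14, 2037 had an E14 Otx2 peak, 16.5% (15.8 to 17.1%). Most Otx2 alone regions, 10332 or 68.2% (67.4 to 68.9%), had neither factor at E14. Of the BCOR alone regions, 781 had BCOR without Otx2 at E14, 51.6% (49.1 to 54.1%), 413 had both, 27.3% (25.1 to 29.6%), and 301 had neither, 19.9% (18.0 to 22.0%). Those with an Otx2 peak at E14 had an Otx2 peak in a single P0 list in 47.5% of 432 regions (42.8 to 52.2%), against 22.3% of 1082 without one (19.9 to 24.9%). In the single E14 BCOR library the median fold was 7.27 at regions with both, 5.79 at BCOR alone regions and 5.22 at Otx2 alone regions, among those with a peak. The single E14 Otx2 library gave 7.58, 5.20 and 5.75.

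In the adult, replicated peaks of either factor were also most frequent at P0 regions with both. Both adult BCOR lists had a peak at 22.8% of BCOR regions with both (21.3 to 24.3%) and at 7.60% of those alone (6.37 to 9.04%), a difference of 15.2 points (13.1 to 17.1). Both adult Otx2 lists had a peak at 41.1% of Otx2 regions with both (39.4 to 42.9%) and at 19.4% of those alone (18.8 to 20.04%), a difference of 21.7 points (19.9 to 23.6), which was 14.3 points without BCOR replicate 1 of P0. With a peak in either adult list, the differences were 27.3 points for BCOR and 40.7 for Otx2. The adult replicates differed in length, with 1339 and 2445 BCOR peaks and 7183 and 14590 Otx2 peaks, and the longer lists gave the higher shares: an adult Otx2 peak was present at 40.9% and 72.6% of BCOR regions with both in replicates 1 and 2, and at 2.77% and 22.8% of BCOR alone regions. Regions of BCOR alone had replicated adult Otx2 peaks in 41 of 1514 cases, 2.71% (2.00 to 3.65%), and 15 of these also held BCOR in both adult lists. Otx2 alone regions held BCOR in both adult lists in 165 of 15156 cases, 1.09% (0.935 to 1.27%), and 147 of these also held Otx2 there.

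Adult strength did not follow the same order in both replicates of either factor. In adult Otx2 replicate 1 the median fold was 6.63 at P0 regions with both, 5.31 at BCOR alone regions and 8.81 at Otx2 alone regions. These are medians of those with a peak (n = 1277, 42 and 3056). In replicate 2 they were 13.2, 6.73 and 11.8 (n = 2265, 345 and 4785). Regions with both were thus below Otx2 alone in replicate 1 and above it in replicate 2. The adult BCOR medians, in the same order of classes, were 4.98, 5.28 and 5.20 in replicate 1 (n = 845, 143 and 247). In replicate 2 they were 5.95, 5.59 and 5.40 (n = 1262, 236 and 529), so regions with both were lowest in 1 replicate and highest in the other. Over the whole course, 749 of the BCOR alone regions had no Otx2 peak in any of the 5 Otx2 lists, 49.5% (47.0 to 52.0%), and 11258 of the Otx2 alone regions had no BCOR peak in any of the 5 BCOR lists, 74.3% (73.6 to 74.97%). At the other end, 523 of the BCOR regions with both had a peak in all 10 lists, 16.8% (15.5 to 18.1%).

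**Figure D5:**
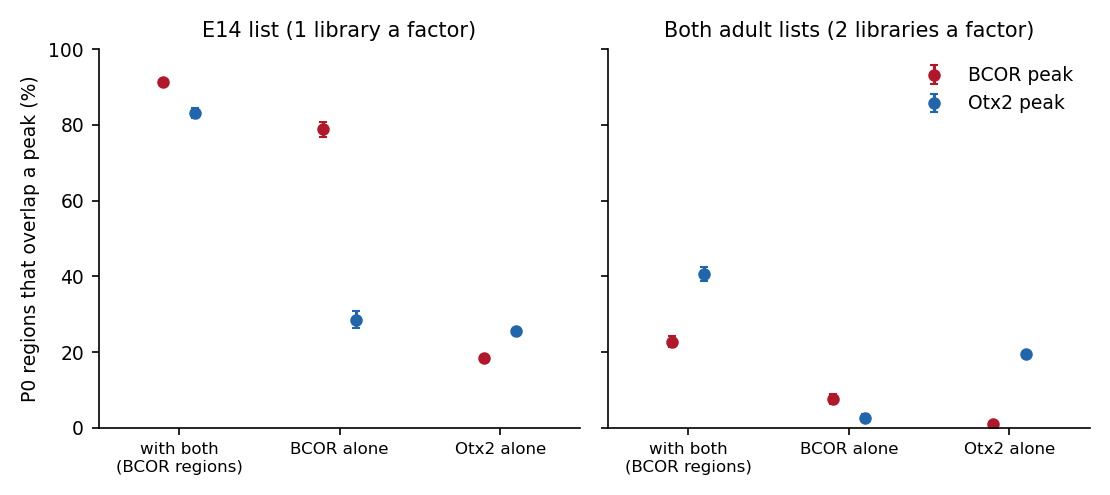
Share of P0 regions that overlap a BCOR peak (red) or an Otx2 peak (blue), in percent with 95% Wilson intervals, in the E14 lists (left) and in both adult lists of a factor (right), for BCOR regions with both, BCOR alone and Otx2 alone. Regions with both are highest in each column of values, at 91.3% and 83.2% at E14 and 22.8% and 40.6% in the adult.

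The strongest single regions of each class are given as examples, and their difference at P0 follows from the rule of the classes. They were chosen by the worst of their ranks by fold in the lists that define them, positions are on mm9 and counted from 1, and the folds of different libraries are given side by side as a description only. Their position relative to genes, and their sequence, were not analysed here. The leading region with both, chr5:36826879-36827409, had BCOR folds of 18.1 and 18.8 and Otx2 folds of 46.3 and 48.6 in replicates 1 and 2. It already held both factors at E14, with folds of 7.83 for BCOR and 11.1 for Otx2, and in the adult it kept Otx2 (19.3 and 40.4) and BCOR in replicate 2 (9.91). The next, chr15:77672287-77673163, had BCOR folds of 12.5 and 19.1 and Otx2 folds of 47.7 and 48.9. The region at rank 3 was chr4:43012536-43013930, with 12.2 and 20.2 for BCOR and 50.7 and 83.4 for Otx2. Another region of chromosome 4, chr4:115635097-115636059, had BCOR folds of 18.6 and 20.7 and Otx2 folds of 35.7 and 52.0 at P0. Its adult folds, from other lists, were 17.2 and 13.9 for BCOR and 52.4 and 120.9 for Otx2. The fifth, chr11:86921766-86923166, had BCOR folds of 12.2 and 16.7 and Otx2 folds of 37.0 and 40.4. All 5 held both factors at E14, and 4 of them held both in all adult lists. Over all BCOR regions with both these shares were 79.8% and 17.6%.

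The highest BCOR fold of all BCOR regions, in both libraries, belonged to a region of BCOR alone. At chr11:115396799-115398026 it was 50.3 and 78.5, while Otx2 had a fold of 3.99 in replicate 1 and no peak in replicate 2. At chr11:49838212-49839252 BCOR had 36.2 and 51.4 and Otx2 no peak in either P0 list. At chr10:70061258-70062923 BCOR had 29.4 and 41.9, and Otx2 3.93 in replicate 1 and no peak in replicate 2. This last region differed from the others in the adult, where Otx2 had folds of 9.43 and 45.3 beside BCOR folds of 31.9 and 49.0. The other two were chr5:121901832-121903103, with BCOR folds of 28.0 and 39.7, and chr9:31839156-31840767, with 24.9 and 43.1, both without an Otx2 peak at P0. BCOR was present at E14 and in both adult lists at all 5, with E14 folds of 9.69 to 14.3. Over all BCOR alone regions it was present in 78.9% at E14 and in 7.60% in both adult lists. Otx2 had a peak at E14 at 4 of the 5, against 28.5% over the class. Its folds there were 3.72 to 7.54, in a list whose median was 5.95. Only chr9:31839156-31840767 had no Otx2 peak in any list, against 49.5% over the class.

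The leading Otx2 alone regions, ranked by their Otx2 fold without regard to BCOR, had the following Otx2 folds. At chr3:38611207-38612280 the Otx2 fold was 124.0 and 142.5, with no BCOR peak at any age. In the adult it had no Otx2 peak in replicate 1 and one of fold 6.81 in replicate 2, where the list's median was 8.88. By contrast chr6:124789938-124791273, with 108.7 and 134.7 at P0, had Otx2 folds of 102.6 and 280.5 in the adult, and a BCOR peak of fold 7.27 in adult replicate 1. At chr6:144998915-145000070 the P0 Otx2 folds were 104.3 and 118.4, followed in the adult by 43.4 and 86.1, with no BCOR peak in any list. At chr7:140113240-140114263 they were 103.3 and 122.9, followed in the adult by 51.0 and 88.6, with a BCOR peak of fold 8.13 in adult replicate 1. The fifth, chr1:128911066-128912832, had 91.4 and 111.8 at P0 and no Otx2 peak in the adult, beside a BCOR peak of fold 3.86 in P0 replicate 2. None of the 5 had a BCOR peak at E14, and all had an Otx2 peak there, with folds of 5.18 to 15.9. Over all Otx2 alone regions, 18.4% had a BCOR peak and 25.6% an Otx2 peak at E14.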

How the data were processed

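CUT&RUN peak lists of BCOR and Otx2 in CD1 mouse retina were used as deposited. The authors called peaks with MACS2 on each library, per the labels. Bowtie2 and deepTools, and the builds mm9 and mm10, stand in the submitters' processing notes without versions. Neither the control nor the threshold of peak calling is stated in these sources. The deposited lists give for each peak a score (not used), a −log10 p-value (not used), a −log10 q-value, a summit position, and the fold there as a ratio over background. Chromosome names and peak ends are those of mm9.

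Samples were grouped by title. Regions, overlaps and 95% Wilson intervals were computed in Python 3.11.15 (pandas 2.3.3, numpy 2.4.6, scipy 1.17.1, statsmodels 0.14.6), overlap counts were checked with bedtools 2.31.1, and the code was tested on simulated data. A region's fold, width and summit are those of its highest peak in a list. No chance level of overlap was computed. The comparison, the measures and the rule for named regions (the 5 of each class with the best worst rank by fold, the 3 widest and the 3 longest runs with both) were chosen with earlier results of these data known. Alternatives were stricter peaks (−log10 q of at least 5), equal lists of 5000 peaks, another overlap or region rule, chromosome X and each library left out. Genes, promoters, sequence, motifs and the RNA libraries were planned or considered and not analysed here, for want of an mm9 genome and annotation in the materials used.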

Additional observations from a re-analysis of the deposited data

Results flagged for a closer look

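Peaks on the mitochondrial genome, outside the chromosomes compared, were listed at P0 for Otx2 and not for BCOR. The Otx2 lists held 12 and 10 of them in replicates 1 and 2, with folds of 1.42 to 1.92 and 1.45 to 1.96, and both BCOR lists held 0. At E14 the BCOR and the Otx2 list held 7 each, and in the adult the BCOR lists held 5 and 1 and the Otx2 lists 1 and 1. The P0 Otx2 counts were marked because they lie above the limit of 3 that a count of 0 allows. The P0 lists differ in length, with 5410 and 8974 peaks in all for BCOR and 22236 and 25379 for Otx2. Factor and length go together at P0, so the difference in mitochondrial peaks cannot be told apart from length within P0. At E14 the BCOR and Otx2 lists held 11123 and 8740 peaks in all. In the adult the BCOR lists held 1403 and 2523 and the Otx2 lists 7344 and 14986, so over all ages the counts did not rise with length. None of these peaks enters a region on chromosomes 1 to 19, and their relation to the lists was not tested.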

How the results depend on the processing

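Of 128 alternative values for 16 results, 76 stayed within the error of the reported value or, for the tested width difference, kept its direction. A further 46 moved beyond the error and 6 turned in direction. The size of the width difference was not judged in this count. Its exact permutation p cannot fall below 0.333 or, in pairs, 0.5. The width difference between factors was −64.75 bases with peaks of −log10 q of at least 5 and −279.25 bases with 5000 peaks a list, each with an exact permutation p of 0.333. With peaks of −log10 q of at least 5, the fold in regions with both over alone was 0.984 for BCOR and 1.13 for Otx2, the width ratio 0.963 and 1.08, and the summit distance 43.8 bases. The single-list share was then 25.9% of BCOR alone and 16.5% of Otx2 alone regions, the share within 10 kb 17.0% and 4.72%, and the BCOR difference 16.3 points at E14 and 12.0 in the adult. With 5000 peaks a list, the shares with the other factor were 33.8% of BCOR and 28.9% of Otx2 regions. The fold ratio was 0.968 for BCOR and 0.853 for Otx2, the width ratio 0.951 and 0.988, the distance 41 bases, and the single-list share 10.4% and 17.4%. With regions limited to bases covered by both replicates, 25.8% of BCOR alone and 7.44% of Otx2 alone regions lay within 10 kb of the other factor. With an adult peak in either list, the difference was 27.3 points for BCOR and 40.7 for Otx2. The cause was not tested in any of these, beyond the smaller lists that the settings make.

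Leaving out each P0 library gave 60.7 to 74.0% of BCOR regions with Otx2 and 13.9 to 28.9% of Otx2 regions with BCOR. The fold ratio was 1.06 to 1.12 for BCOR and 1.29 to 1.44 for Otx2, the width ratio 1.04 to 1.19 and 1.21 to 1.39, and the distance 50.25 to 54.25 bases. Single-list shares were 25.6 to 25.7% and 12.4 to 13.6%, and shares within 10 kb 23.6 to 29.9% and 7.27 to 12.7%. Differences were 13.4 to 19.1 points for BCOR and 55.2 to 59.7 for Otx2 at E14, and 11.3 to 15.3 and 14.3 to 22.2 in the adult. With the replicate number as a block, same-numbered lists shared 66.5% and crossed lists 66.6% of BCOR peaks with Otx2, and the width difference kept −42.25 bases, with an exact p of 0.5, the smallest that 2 pairs allow. Unknown depth of the libraries limits all comparisons of list length.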

Other observations

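Loci with both factors were mostly scattered singly. Of 3106 loci, 2844 had no other within 10 kb, and 262, or 8.44%, lay in 117 runs, of which 104 held 2 loci, 10 held 3 and 3 held 4 or more. The longest run, chr9:3000105-3038257, held 16 loci in 38.2 kb and had peaks in all 10 lists, with P0 folds of 1.25 to 2.95 for BCOR and 1.06 to 1.92 for Otx2 and −log10 q of up to 1549 and 524. The other runs of 4 were chr3:96042659-96051079 and chr4:154326827-154339009, over 8.42 and 12.2 kb. Without the peaks of high significance and low fold, which number 24 and 22 in the BCOR and 7 and 15 in the Otx2 lists, the share of BCOR regions with Otx2 was again 67.3%.

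The widest loci with both were chr17:39979951-39985747, with BCOR folds of 1.33 and 1.92 and Otx2 folds of 6.41 and 6.10, chr8:35867726-35871526, with 3.38 and 5.88 and 8.15 and 7.89, and chr17:27692123-27695803, with 10.9 and 13.8 and 11.9 and 12.5. They measured 5797, 3801 and 3681 bases. The widest had Otx2 −log10 q of 914 and 1049 at P0 and a peak in all 10 lists. Whether the signal there is binding was not tested.

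On chromosome X, outside the main comparison, 49 of 74 BCOR regions overlapped an Otx2 region, 66.2% (95% Wilson interval 54.9 to 76.0%), and 49 of 335 Otx2 regions overlapped a BCOR region, 14.6% (11.2 to 18.8%).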
